A study of Mus musculus with 12 samples.

Results

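The comparison set RNA from thymic epithelial cells (TECs) of 3 wild-type organ cultures that received the solvent DMSO against RNA from 3 cultures of a control genotype that received tamoxifen. Its members were the 6 libraries so labelled, out of 12 in the series, and the 25867 genes of the deposited count tables that have a symbol, of which 18670 had enough counts to be tested. TECs are the stromal cells of the thymus that present antigens to developing T cells. Thymic lobes of C57BL/6 mice were taken from embryos in the third week of gestation, kept for 4 to 5 days in 1.35 mM 2'-deoxyguanosine, which kills the thymocytes, and then stimulated through the receptor RANK, by 10 µg/mL of agonist antibody for 3 days. The lobes of all 4 groups went through these steps, and the TECs were then sorted. The other 6 libraries came from cultures treated with tamoxifen that carry RosaCre-ERT2 and Kat7fl/fl (knockout, 3) and from wild-type cultures (3) given the KAT7 inhibitor WM-3835, KAT7 being a histone acetyltransferase. The genotype labels of the compared groups read control and wildtype, while the deposited counts head the control libraries wt, without naming alleles. The labels do not say which alleles the control cultures carry, whether they carry the Cre, or how much tamoxifen or DMSO was given, and RosaCre-ERT2 is not limited to TECs. The DMSO and control cultures therefore differed in treatment and in genotype label, and the contributions of the 2 cannot be told apart. Xist and the Y-linked genes, described below, also divided the groups, though the labels give no sex. A difference in the sex of the embryos cannot be told apart from treatment or genotype label either. They are the reference cultures of the inhibitor and of the knockout, and the comparison shows how alike the references were.

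Medullary TECs pass from an immature state rich in keratins and the chemokine CCL21 to a mature state that makes AIRE, a regulator that lets these cells transcribe genes of other tissues, and RANK signalling drives this step. Part of the medulla then takes on the programs of peripheral cell types: tuft cells, keratinocytes, microfold cells, enterocytes, ciliated cells and others, together called mimetic cells. Thymic tuft cells depend on the transcription factor POU2F3, signal through the taste pathway and make the cytokine interleukin-25. Cortical TECs form the other branch, which serves positive selection through the proteasome subunit encoded by Psmb11.

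Values below are CPM (each library's counts divided by its TMM-scaled total), in the order of replicates 1, 2 and 3. Changes are log2 differences, DMSO minus control, with a standard error (SE). A gene was called at an adjusted p under 0.05 (edgeR's quasi-likelihood test, Benjamini-Hochberg adjustment over the 18670 genes). The SE was worked back from that test, as the absolute change divided by the square root of its F statistic. The 6 libraries held 26656847 to 52368012 counts. Spread among replicates was unequal: the biological coefficient of variation was 0.465 among control and 0.101 among DMSO libraries. It was 0.295 among knockout and 0.126 among WM-3835 libraries. In bulk RNA, fewer cells of a type and less RNA per cell cannot be told apart. The sorted cells had the general epithelial markers in both groups, with 12 of 12 listed markers tested. Epcam, the usual surface marker of TECs, stood at 712, 687 and 688 CPM in control and at 539.8, 568 and 515 CPM in DMSO libraries, and the log2 change was -0.36 ± 0.06 (SE, adjusted p = 0.00026). Cd3e, which marks T-lineage cells, was at 0.0473, 0 and 0.167 CPM in control and 0, 0.0748 and 0 CPM in DMSO libraries, too few counts to be tested.

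Kat7 and Aire were measured in each library first. Kat7 (Entrez ID 217127, chr11:95271853-95310246 on GRCm38.p6, that is mm10) stood at 89.01, 76.5 and 75.97 CPM in control and at 88.4, 84.6 and 88.9 CPM in DMSO libraries. The ranges overlapped, and the log2 difference of 0.12 ± 0.09 (SE) did not pass the test (adjusted p = 0.378). Knockout libraries had 0.606, 0.81 and 0.869 CPM. Aire (chr10:78030022-78043610) was at 596, 668 and 636 CPM in control and at 1123, 1215 and 1259.6 CPM in DMSO libraries. The groups did not overlap, and the difference of 0.92 ± 0.08 (SE, adjusted p = 8.75e-08) corresponds to 1.89-fold more Aire RNA in the DMSO cultures. All 3 DMSO libraries also stood above the knockout libraries, at 542, 490.2 and 577 CPM, and above the WM-3835 libraries, at 510.1, 586 and 572 CPM.

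Of the 18670 genes, 2121 were called higher in DMSO cultures (11.4% of those tested) and 2479 lower (13.3%). The counts of every gene list below are to be read beside these shares. The sides differed in size. Among the called genes, 1174 were more than 2-fold lower and 249 more than 2-fold higher, and past 8-fold the counts were 177 lower and 44 higher. The median log2 change over all tested genes was 0.0017. The 3 libraries of one group lay wholly above or below the other 3 in 7268 genes (38.9%). By quartile of mean level, the median change was -0.42 in the lowest and 0.06 in the highest quartile, and the called genes were fewest in the lowest, with 55 higher and 236 lower, against 1030 and 679 in the highest. By quartile of gene length, the 4 medians lay within 0.01 of 0.

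**Figure D1:**
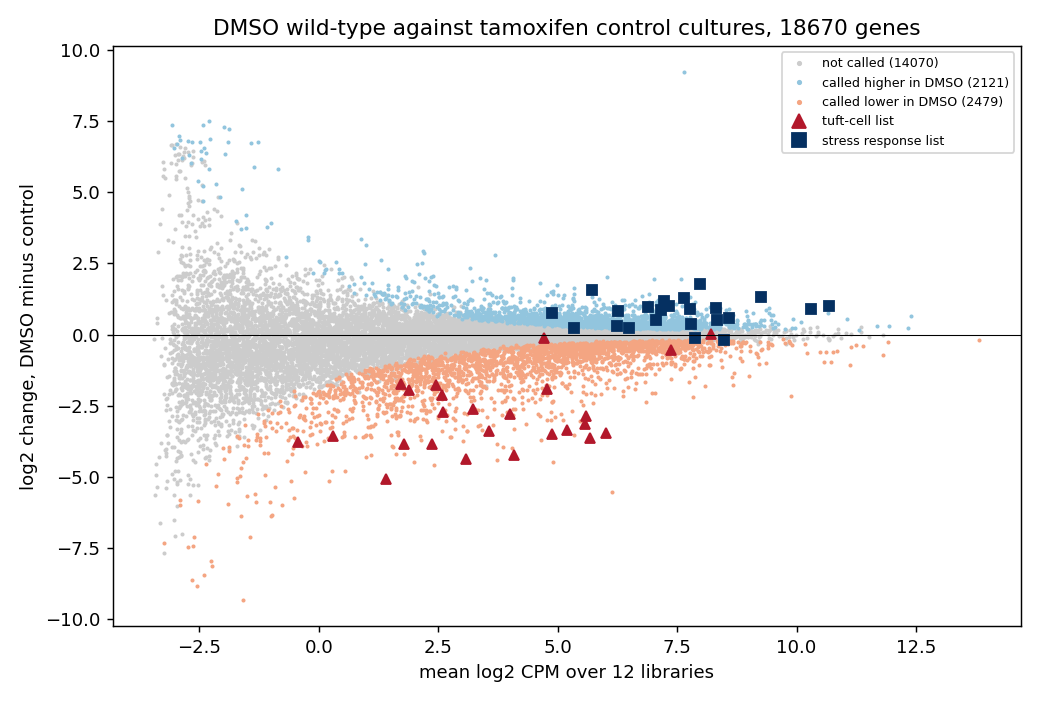
Log2 change (DMSO minus control, vertical axis) against mean log2 CPM over 12 libraries (horizontal axis) for 18670 tested genes, with called genes coloured. The tuft-cell list (triangles) lies below 0 apart from Hpgds and Spib, close to 0, and the stress response list (squares) lies mostly above 0.

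Among 40 gene lists, the tuft-cell program had the largest median difference. Of 25 listed genes, all tested, 23 were called lower in the DMSO cultures, where 13.3% of all tested genes were, and the median log2 change was -3.16 against 0.0017 over all genes. The list was chosen with earlier results of these data known, so its direction is not independent evidence. Summed over the list, control libraries held 2231, 1620.0 and 1789 CPM and DMSO libraries 645, 575 and 608 CPM. Most of what remained in the DMSO cultures came from Spib and Sox9, which are not specific to tuft cells.

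Pou2f3 (Entrez ID 18988, chr9:43123927-43205755), the transcription factor that tuft cells require, stood at 58.02, 33.6 and 44.2 CPM in control and at 7.21, 6.58 and 5.5 CPM in DMSO libraries. All 3 control libraries were above all 3 DMSO libraries, and the difference was -2.81 ± 0.22 (SE, adjusted p = 3.69e-08). Trpm5 (chr7:143071529-143094642), the cation channel of the taste pathway, was at 229, 158 and 181 CPM in control and at 18.3, 10.6 and 16.5 CPM in DMSO libraries, a 12.3-fold difference (adjusted p = 9.98e-11). Il25 (chr14:54932695-54935837), the cytokine of tuft cells, fell furthest in the list, from 22.7, 14.1 and 18.1 CPM to 0.925, 0.224 and 0.374 CPM, and the log2 change was -5.08 ± 0.37 (SE, adjusted p = 1.52e-08). For these 3 genes the groups did not overlap.

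The other members followed by role. In the taste pathway, Gnat3 (the G protein alpha subunit gustducin) changed by -3.36 and Plcb2 (the phospholipase) by -3.16. Of the enzymes that make leukotrienes and prostaglandins, Alox5ap changed by -4.37, Alox5 by -3.49, Ptgs1 by -3.39 and Ltc4s by -2.71. Chat, which makes acetylcholine, changed by -3.86. Among structural and signalling members, Avil (an actin regulator) changed by -3.45, the kinase gene Dclk1 by -2.87 and the kinase gene Bmx by -4.25. These genes were called, and each had 3 control libraries above 3 DMSO libraries. The regulators Gfi1b (-1.73) and Ascl2 (-1.94) were called lower by less. Sox9, a factor of many epithelial progenitors, was called with the smallest change of the 23, -0.55. The other 2 members did not pass the test. Hpgds, a prostaglandin D synthase, had 25.1, 24.4 and 15.9 CPM in control and 18.9, 16.5 and 24.9 CPM in DMSO libraries, and Spib, a factor shared with B cells and mature medullary TECs, had 298, 259 and 335 and 303, 305 and 307 CPM.

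**Figure D2:**
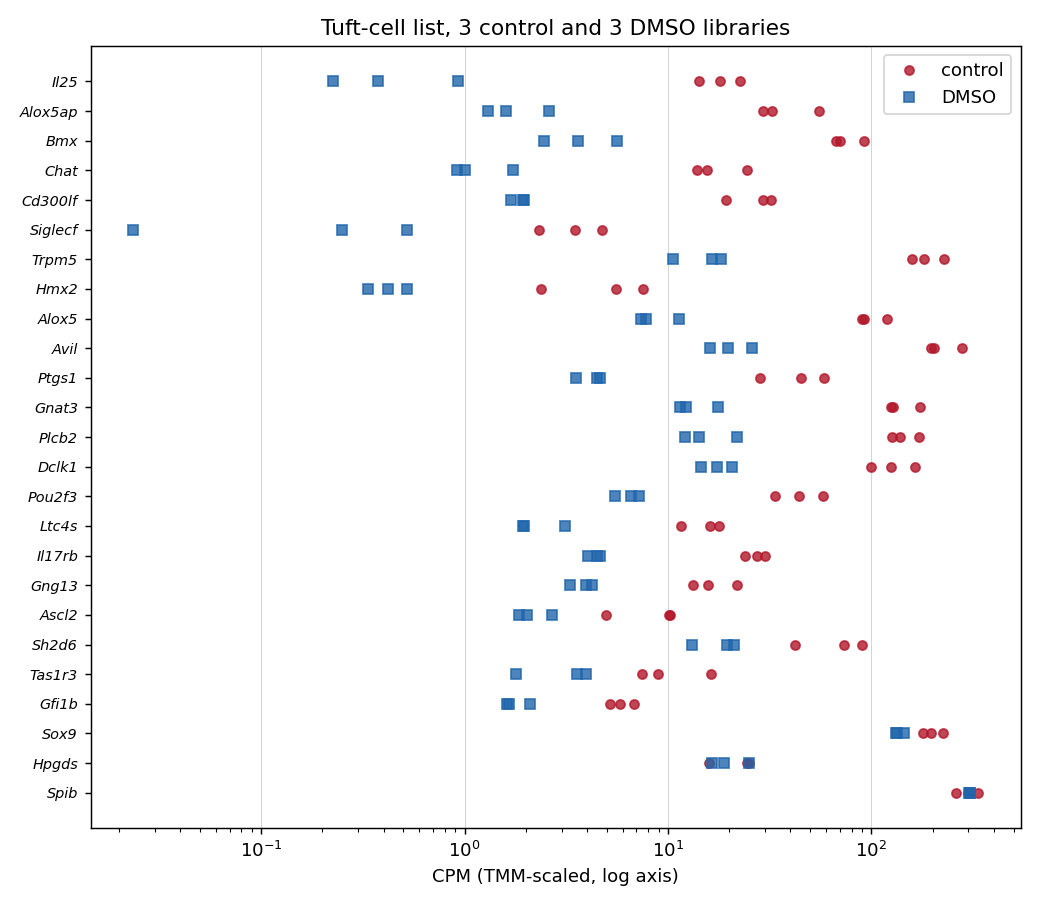
CPM of the 25 genes of the tuft-cell list (log axis) in 3 control libraries (circles) and 3 DMSO libraries (squares), ordered by log2 change. The groups do not overlap for 23 genes and overlap for Hpgds and Spib.

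The 15 largest falls were taken among called genes with a mean log2 CPM of at least 1 and no overlap between groups, and 4 of them were members of the list (Il25, Alox5ap, Bmx, Chat). Of the rest, Rgs13, a regulator of G protein signalling known from tuft cells, went from 35.4, 19.2 and 22.2 CPM to 1.41, 0.449 and 1.17 CPM (-4.60, adjusted p = 6.05e-08), and Sh2d7, an SH2-domain gene, from 85.4, 51.8 and 48.2 to 4.12, 2.02 and 2.39 CPM. The signalling gene Vav1 (-3.99), best known from blood cells, and the bitter taste receptor gene Tas2r115 (-3.94) were among the 15. So were the chitinase-like gene Chil4 (-4.49), Pmp2 (-4.47), Srpx2 (-4.22), Cbln4 (-4.20), Foxi2 (-3.91) and Erdr1. Counts of Chil4 may be shared with a near-identical copy. Erdr1 (chrX:170010526-170018797), at the end of the X chromosome, had the largest fall of the 15, from 450.0, 640.0 and 303 CPM to 12.5, 7.78 and 9.32 CPM (-5.54 ± 0.23 SE). It followed the same split in the other cultures, with 474, 386 and 345 CPM in knockout and 15.1, 14.1 and 14.02 CPM in WM-3835 libraries.

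The treated cultures, which share no library with the references, gave the tuft-cell genes a second set of values. WM-3835 minus knockout had a median of -2.86 over the 25 genes, 24 were below 0 and 20 were called lower, where 11.6% of all tested genes were called lower and 10.9% higher. Pou2f3 was at 44.4, 39.3 and 30.1 CPM in knockout and 5.998, 4.69 and 8.22 CPM in WM-3835 libraries, and Trpm5 at 189.6, 187 and 196 and 14.1, 11.1 and 14.6 CPM. The tamoxifen-treated cultures (control and knockout) were thus high in these genes, and the cultures labelled wildtype (DMSO and WM-3835) low, with or without loss or inhibition of KAT7.

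Xist, the RNA of the inactive X chromosome, also divided the libraries. It had 3.05, 2.34 and 3.17 CPM in control and 1852, 1382 and 1898 CPM in DMSO libraries, and the log2 change was 9.23 ± 1.23 (SE, adjusted p = 1.89e-05), but with limma-voom, run as an alternative, the adjusted p was 0.168. The 4 Y-linked genes of the list were lower but present in DMSO cultures: Eif2s3y, for example, had 91.6, 113 and 106 CPM in control and 25.8, 45.8 and 38.2 CPM in DMSO libraries (-1.51, adjusted p = 0.002). Uty changed by -1.49, Kdm5d by -1.33 and Ddx3y by -1.33. The call of Ddx3y was lost without DMSO replicate 1 (-1.08, adjusted p = 0.063). Of the X-linked genes that escape inactivation, Kdm6a was higher by 0.99 ± 0.12 (SE, adjusted p = 4.16e-06) and Eif2s3x by 0.69. The labels give no sex, the antisense partner Tsix cannot be separated from Xist in a kit that does not mark strand, and what part embryo sex has in the 2121 and 2479 calls was not tested. Within the knockout group, Xist stood at 1709, 1191 and 4.94 CPM, and the tuft-cell list summed to 1564, 1629 and 1667 CPM. That group holds 1 library low in Xist, and a link of Xist or sex to tuft-cell levels was not tested. Chromosome X held fewer called genes than the autosomes, 19.3% against 25.0%.

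**Figure D3:**
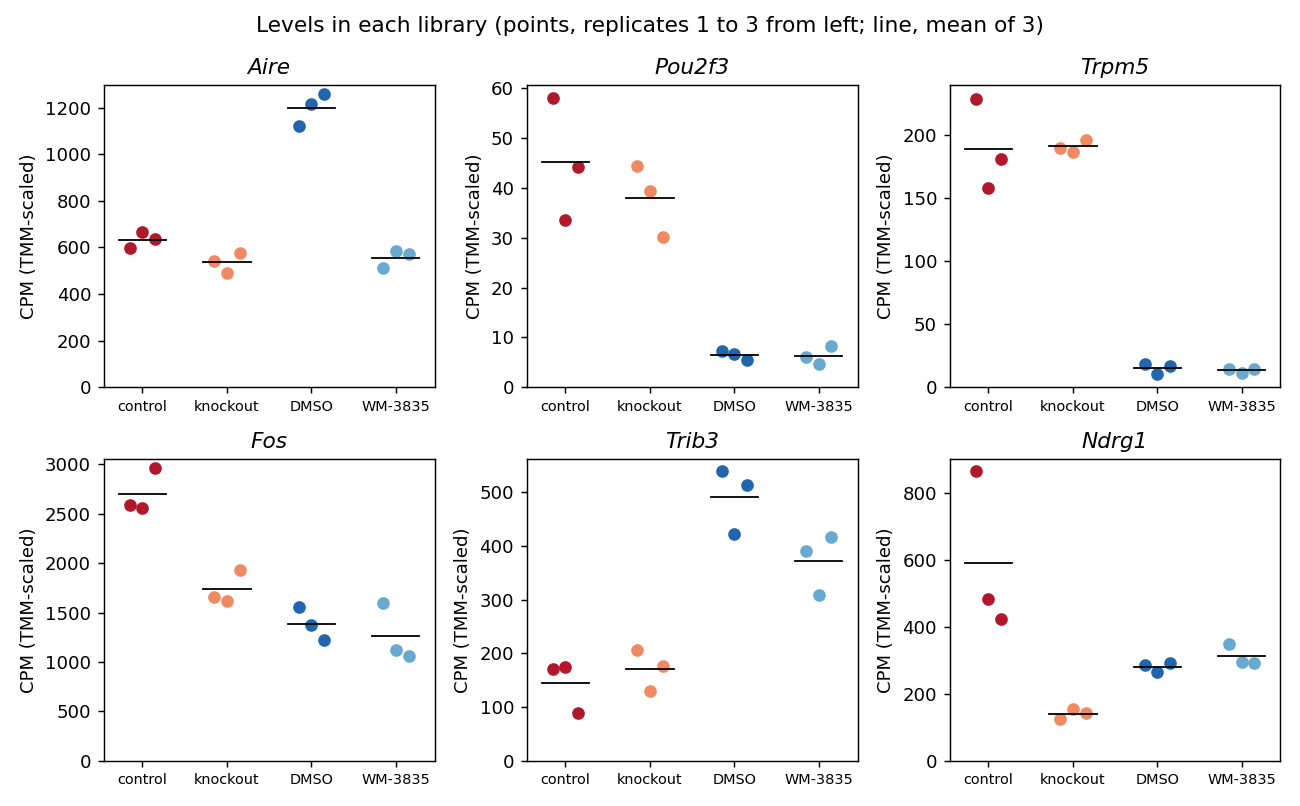
CPM of 6 genes (vertical axes, from 0) in the 12 libraries, by group, with the mean as a line. Aire is higher in DMSO libraries than in the other 9. Pou2f3 and Trpm5 follow the split between tamoxifen-treated cultures and those labelled wildtype. Ndrg1 is highest in the control libraries.

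Markers of mature medullary TECs went both ways. Of 24 genes, 5 were called higher (20.8%) and 6 lower (25%), with a median of -0.04. Of all tested genes, 11.4% were called higher and 13.3% lower. Aire was joined on the higher side by Tnfrsf11a, which encodes RANK, at 80.3, 77.4 and 84.7 CPM in control and 112, 124 and 127 CPM in DMSO libraries (0.58 ± 0.09 SE, adjusted p = 0.000128). The other 3 were Cd40 (0.36), Fezf2 (0.28), the second regulator of antigen transcription in these cells, and Cd74 (0.22), the invariant chain of MHC class II. On the lower side were the costimulatory ligands Cd86, from 9.46, 18.3 and 18.3 CPM to 2.7, 4.56 and 2.69 CPM (-2.22), and Cd80 (-0.999), the chemokines Ccl22 (-2.39) and Ccl5 (-1.19), and the claudins Cldn3 (-1.82) and Cldn4 (-0.83). The count on the higher side rested on few libraries: it was 3 without DMSO replicate 1 or 2 and 8 without control replicate 2. The MHC class II genes H2-Aa, H2-Ab1 and H2-Eb1 had changes of 0.03, 0.18 and 0.09 and did not pass the test.

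Genes that AIRE is known to induce gave no call in the main fit, while Aire itself was higher. Of 25 listed, 21 were tested, and edgeR called 0 in either direction. At an unadjusted p under 0.05 the count was also 0 in both directions, DESeq2 called 0, and limma-voom called 1 lower. Of all tested genes, 11.4% were called higher and 13.3% lower, and in the lowest quartile of mean level 1.18% and 5.06%. The list summed to 251 to 296 CPM in control and 247 to 273 CPM in DMSO libraries, most of it from Csn2, described below. At the low levels of the other genes, the lack of calls cannot show whether they followed Aire. The median of the tested list was -0.49, with a range of -0.54 to -0.22 when 1 library was left out. It was -0.10 with limma-voom and quality weights per group. Csn2, the milk protein beta-casein and the most abundant of the list's casein genes (named after its values were seen), had 222, 174 and 202 CPM in control and 184, 203 and 184 CPM in DMSO libraries, overlapping ranges with a difference of -0.07 ± 0.11 (SE, adjusted p = 0.723). The first gene of the list, Ins2, encoding insulin, had 0.497, 1.27 and 0 CPM and 0.328, 0.337 and 0.492 CPM, too low to judge. Of 15 genes that depend on Fezf2, 1 was called higher (6.7%, Nol4, 1.04) and 4 lower (26.7%), among them Kcnj5 (-2.96). The 4 were 2 without control replicate 3 or any 1 DMSO library.

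Immature medullary TEC genes were lower in the DMSO cultures in 10 of 14 cases (median -0.89). Krt5, the basal keratin that marks medullary TECs, went from 4763, 5118 and 4757 CPM in control to 3066, 3216 and 2522 CPM in DMSO libraries (-0.73 ± 0.08 SE, adjusted p = 1.15e-06). Krt15 had the steepest fall, from 15.4, 9.14 and 24.7 CPM to 2.02, 2.13 and 1.8 CPM (-3.05). Ccl21a, the chemokine that draws thymocytes into the medulla, changed by -1.05, though reads of its near-identical copies may be counted with it. Ly6a (-1.49), Krt14 (-1.34), Plet1 (-1.05), the matrix gene Dcn (-1.82) and Tnfrsf11b, the decoy receptor of the RANK ligand (-0.56), were also called. Dcn is also in the fibroblast list and Tnfrsf11b in the microfold list, and each was counted in both. The group sums, 7253, 7154 and 6778 CPM in control and 4461, 4563 and 3874 CPM in DMSO libraries, did not overlap. In WM-3835 against knockout, the median was -0.33, with 5 called lower and 2 higher.

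Cortical TEC genes leaned the other way in the references: 7 of 17 were called higher and 1 lower (median 0.28). The median was 0.14 without control replicate 1 and 0.49 without control replicate 2. Ly75, the endocytic receptor DEC-205, had 207, 293 and 234 CPM in control and 425, 414 and 444 CPM in DMSO libraries (0.80 ± 0.10 SE, adjusted p = 1.4e-05). Dll4, the Notch ligand that commits progenitors to the T lineage, had 66.8, 106 and 69.9 and 139, 185 and 145 CPM (0.94). Ctsl, a protease of antigen processing, was higher by 0.65, Enpep by 0.72, Pltp by 0.51, Kitl by 0.44 and Foxn1, the master regulator of TECs, by 0.33. The Foxn1 call was lost without control replicate 1 (adjusted p = 0.059) and that of Kitl without DMSO replicate 2 (adjusted p = 0.052). Bmp4 was lower (-1.01). Psmb11 itself overlapped between groups, 253, 506 and 342 CPM against 460.0, 633 and 441 CPM (adjusted p = 0.158), and passed without control replicate 2 (0.80, adjusted p = 0.019). The same 17 genes had a median of -0.54 in WM-3835 against knockout, with 10 called lower and 2 higher, so the sign was not that of the references. The difference between the 2 comparisons was not tested.

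Several other mimetic programs were lower in the DMSO cultures, by less than the tuft-cell program. Keratinocyte-like and cornified-envelope genes were called lower in 13 of 23 cases (median -0.99), a count that was 8 without DMSO replicate 3. Flg (filaggrin) went from 13.1, 18.7 and 5.65 CPM to 2.35, 2.54 and 2.79 CPM (-2.28), Dsg3, a desmosomal cadherin, changed by -1.81, the protease inhibitor Spink5 by -1.40 and Ivl (involucrin) by -1.94. Of 13 microfold-cell genes, 6 were lower (46.2%) and 1 higher (7.7%), with a median of -0.56. Of all tested genes, 13.3% were called lower and 11.4% higher. Gp2, the uptake receptor of microfold cells, had 213, 92.2 and 119 CPM in control and 30.98, 21.99 and 26.96 CPM in DMSO libraries (-2.40 ± 0.31 SE, adjusted p = 1.23e-05). The chemokines Ccl9 (-2.82) and Ccl6 (-2.63) fell with it. Sox8, a transcription factor of microfold cells, was the one called higher, from 9.49, 4.86 and 9.66 CPM to 15.49, 20.98 and 22.9 CPM (1.30), opposite in direction to Gp2. Spib, the other factor of these cells, did not differ past the test.

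Enterocyte- and hepatocyte-like genes were called lower in 6 of 22 cases (27.3%) and higher in 1 (4.5%), with a median of -0.78. Vil1 (villin) had 20.8, 17.8 and 14.5 CPM in control and 2.66, 2.06 and 2.97 CPM in DMSO libraries (-2.78), and Reg3g, an antimicrobial lectin, changed by -1.21. Hnf4a, the transcription factor listed first, stood at or below 0.573 CPM in the 6 libraries. Ciliated-cell genes were called lower in 4 of 19 cases (21.1%) and higher in 1 (5.3%), where 13.3% and 11.4% of all tested genes were. The gene called higher was the regulator Mcidas, which went from 1.61, 0.697 and 2.17 CPM to 5.34, 6.99 and 5.85 CPM (2.02). Dnah5, an axonemal dynein, was lower (-1.85), and Foxj1, the factor of ciliated cells, had 35.9, 32.2 and 57.2 and 33.9, 36.4 and 35.3 CPM and was not called. The count of 4 was 2 without control replicate 1, DMSO replicate 1 or DMSO replicate 2. Skeletal-muscle genes gave 1 call of 20 (5% lower), Ttn (titin, -1.18). Neuroendocrine genes gave 3 lower (15.8%) and 1 higher (5.3%) of 19. Both lists were near or below the shares of all tested genes. The 1 neuroendocrine gene called higher became 3 without control replicate 1. Of the neuroendocrine genes called, Insm1, a neuroendocrine transcription factor, was higher by 0.73, and Car8 (-2.96) and Cpe (-2.79) were lower.

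**Figure D4:**
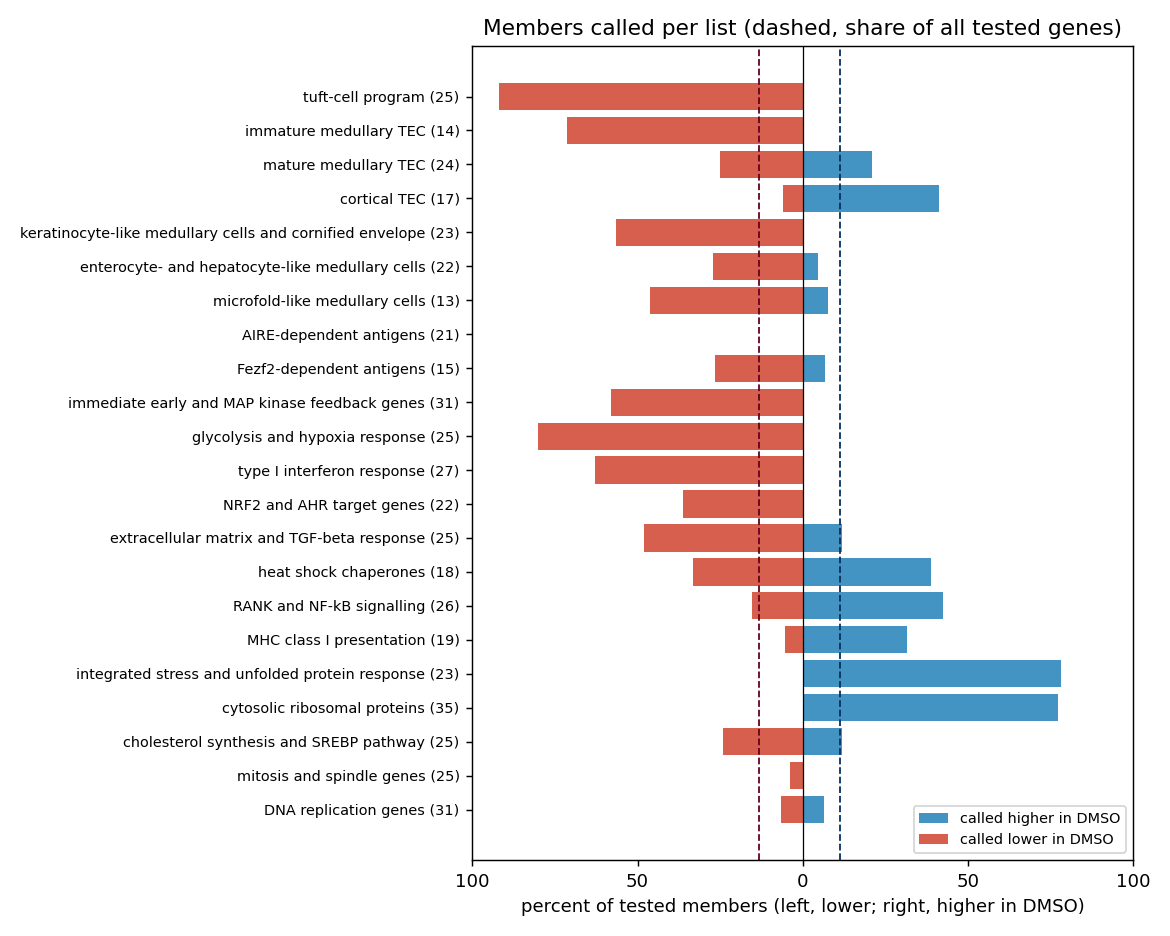
Share of the tested members of 22 gene lists called higher (right) or lower (left) in DMSO cultures, in percent, with the number tested in brackets and the share of all tested genes as dashed lines (11.4% and 13.3%). The tuft-cell and hypoxia lists reach furthest left (92% and 80%), the stress response and ribosomal lists furthest right (78.3% and 77.1%).

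Genes of the integrated stress response and the unfolded protein response were higher in the DMSO cultures. These pathways answer amino acid shortage and misfolded protein in the endoplasmic reticulum through ATF4 and related factors. Of 23 genes, 18 were called higher, where 11.4% of all tested genes were, with a median of 0.85. Atf4 had 325, 337 and 281 CPM in control and 482, 454 and 474 CPM in DMSO libraries (0.58 ± 0.07 SE, adjusted p = 1.03e-05). Some of its known targets changed by more. Trib3 (chr2:152337425-152344060), a pseudokinase, had 170.2, 175 and 88.6 CPM in control and 539, 422 and 513 CPM in DMSO libraries, 3.4-fold higher and without overlap (adjusted p = 3.34e-06). Ddit3, which encodes CHOP, was at 129, 142 and 93.3 and 308, 261 and 324 CPM (1.29), Atf5 changed by 1.32, Sesn2 by 1.19 and Asns, asparagine synthetase, by 0.97. Of the chaperones of the endoplasmic reticulum, Hspa5 (BiP) had 1444, 1285 and 938 CPM in control and 2387, 2148 and 2835 CPM in DMSO libraries (1.01), Hsp90b1 changed by 0.89 and Manf by 0.85. Control replicate 3 was the lowest of the controls in Atf4, Trib3, Ddit3 and Hspa5, and the list's count was 18 or 19 with any 1 library left out. Xbp1 (-0.21), Cebpb (-0.11), Dnajb9 (0.29), Ern1 (0.24) and Slc7a11 (0.23) did not pass. In WM-3835 against knockout, 9 of the 23 were called higher (median 0.30), with Trib3 at 206, 129 and 175 CPM in knockout and 390.4, 308 and 416 CPM in WM-3835 libraries.

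Cytosolic ribosomal protein genes were called higher in 27 of 35 cases, by small amounts (median 0.37, highest 0.69). Rplp0 had 928, 802 and 719.6 CPM in control and 1229, 1152 and 1179.7 CPM in DMSO libraries (0.54 ± 0.09 SE, adjusted p = 0.000122), and Rplp1 had the highest change, 0.69. Counts of these genes may be shared with processed pseudogenes. Heat shock chaperones went both ways. Of 18 genes, 7 were higher, among them the mitochondrial pair Hspd1 (0.83) and Hspe1 (0.79) and the cytosolic Hsp90aa1 (0.40), and 6 were lower, among them Dnajb1 (-0.55), Bag3 (-0.40) and Hspa4l (-0.41). Hspa1b (0.54) and Hspa1a (0.43) are near-identical copies whose counts are uncertain.

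Immediate early genes, which respond within minutes to growth factor and stress signals, and the feedback genes of the MAP kinase pathway were called lower in 18 of 31 cases (median -0.61). Fos (chr12:85473890-85477274) had 2587, 2559 and 2961 CPM in control and 1561, 1377 and 1224 CPM in DMSO libraries (-0.96 ± 0.12 SE, adjusted p = 1.38e-05). Egr1, from 2152, 2402 and 2464 CPM to 1316, 1250.4 and 1046 CPM (-0.96), and Egr2 (-1.40) followed, as did Ier2 (-1.02), Klf4 (-1.09), Btg2 (-1.03) and Jund (-0.80). The phosphatases that switch the pathway off were lower too, Dusp6 by -1.10 and Dusp1 by -1.05. The count was 18 with any 1 library left out. In the treated cultures the list was divided, with 7 called higher and 10 lower in WM-3835 against knockout. Dusp1, lower in the references, was higher there (94.2, 96.6 and 113 CPM in knockout, 183, 135 and 138 CPM in WM-3835 libraries, 0.59), while Egr1 was again lower (-0.75).

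Promoter windows of 250 bases before the RefSeq start (GRCm38.p6) were searched, on both strands, for the cAMP response element TGACGTCA in the immediate early list and for the octamer ATGCAAAT, the letters bound by POU factors, in the tuft-cell list. A window was found for 24 of 31 and 21 of 25 members. Each gene was counted once, if any of its windows held a match. The cAMP response element was found for 2 of 24 members (8.33%) against 1.77% of all 27025 genes with a window. The octamer was found for 1 of 21 (4.76%) against 1.81%. The 27025 genes were not limited to those tested. The 3 windows with a match are shown in the direction of transcription with the match in capitals, because they are the ones that hold the searched letters. Btg2 and Dusp1 were called lower and Hpgds was not called. A match describes the letters and is no evidence of binding. They lie on the minus strand at chr1:134079156-134079405 (Btg2), chr17:26508473-26508722 (Dusp1) and chr6:65144731-65144980 (Hpgds).
Btg2: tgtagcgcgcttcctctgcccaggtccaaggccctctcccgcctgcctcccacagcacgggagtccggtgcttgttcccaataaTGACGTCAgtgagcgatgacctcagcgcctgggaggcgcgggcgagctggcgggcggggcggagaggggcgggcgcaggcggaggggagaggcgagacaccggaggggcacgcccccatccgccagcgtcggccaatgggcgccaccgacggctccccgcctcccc
Dusp1: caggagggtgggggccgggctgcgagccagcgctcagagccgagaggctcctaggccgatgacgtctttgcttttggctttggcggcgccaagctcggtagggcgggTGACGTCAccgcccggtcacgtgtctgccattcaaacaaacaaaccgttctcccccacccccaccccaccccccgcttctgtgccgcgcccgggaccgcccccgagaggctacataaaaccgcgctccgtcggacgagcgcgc
Hpgds: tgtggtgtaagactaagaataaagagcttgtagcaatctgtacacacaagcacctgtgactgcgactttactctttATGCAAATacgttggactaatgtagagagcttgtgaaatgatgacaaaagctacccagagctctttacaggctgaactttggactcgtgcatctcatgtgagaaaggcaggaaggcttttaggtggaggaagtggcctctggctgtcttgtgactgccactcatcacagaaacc

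Glycolysis and hypoxia-response genes were called lower in 20 of 25 cases (median -0.51). Ndrg1 (chr15:66929318-66969641), a strongly hypoxia-induced gene, had 864, 484 and 423 CPM in control and 286, 264 and 292 CPM in DMSO libraries (-1.07 ± 0.18 SE, adjusted p = 0.000175). Control replicate 1 was the highest by far, and without it the change was -0.68 and the list's count 16. Slc2a1, the glucose transporter GLUT1, had 529, 300.5 and 196 CPM in control and 194, 165 and 198 CPM in DMSO libraries (-0.88), where DMSO replicates overlapped control replicate 3. Egln3, an oxygen sensor, changed by -1.70, Pfkp by -1.22, Ero1a by -1.07, Hk1 by -1.05 and Ldha by -0.77. In the treated cultures the list stood the other way: 17 of 25 were called higher in WM-3835 than in knockout libraries (median 0.43), with Ndrg1 at 124, 156 and 143 CPM in knockout and 349.8, 296 and 293 CPM in WM-3835 libraries. The knockout sums of the list (3810.2, 3921 and 4094 CPM) lay below those of DMSO libraries (4858, 4734 and 4871 CPM), and the control sums (8769, 6534 and 6247 CPM) above all of these. The difference between the 2 comparisons was not tested.

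Type I interferon-response genes were called lower in 17 of 27 cases (median -0.35). Oas2 had 110.5, 113 and 174 CPM in control and 30.7, 32.5 and 29.3 CPM in DMSO libraries (-2.10 ± 0.20 SE, adjusted p = 3.73e-07), Oas3 changed by -1.28, Oasl1 by -0.95 and Irf7, the factor that sustains the response, by -0.59. The RANK and NF-kB list was called higher in 11 of 26 cases and lower in 4 (median 0.20). On the higher side were the noncanonical factors Nfkb2, from 273, 334 and 278 CPM to 435, 437 and 430.0 CPM (0.56), and Relb (0.53), the lymphotoxin receptor gene Ltbr (0.57), Icam1 (0.67) and Traf6 (0.48). Nfkbiz, an inducible regulator, was lower (-0.87). Of 19 MHC class I presentation genes, 6 were higher and 1 lower, with a median of 0.01. Of the 6, Calr (0.85) and Canx (0.53) are chaperones of the endoplasmic reticulum and Tap2 (0.59) is a peptide transporter.

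Matrix and TGF-beta-response genes were called lower in 12 of 25 cases and higher in 3 (median -0.58). Lox, which encodes the collagen cross-linking enzyme lysyl oxidase, had 401, 267 and 282 CPM in control and 105, 97.2 and 98.2 CPM in DMSO libraries (-1.66 ± 0.13 SE, adjusted p = 2.41e-08). Col6a1 (-1.50), Tgfbi (-1.50) and Col3a1 (-2.21) were lower, and the basement membrane collagen Col4a2 was higher (0.62). Fibroblast markers, which include Col3a1 and Dcn, were lower in 5 of 17 cases and higher in 1. Their summed level was 199.6 to 271 CPM in control and 117 to 140 CPM in DMSO libraries. Pdgfra, which defines the list, had 10.1, 6.1 and 2.14 CPM and 0.983, 0.86 and 1.33 CPM (-2.51). The part that these cells have in the matrix values was not tested.

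Genes with a link to the named treatments were counted as well. Tamoxifen acts on the estrogen receptor. Of 21 estrogen-responsive genes, 8 were lower (38.1%) and 2 higher (9.5%) in the DMSO cultures, with a median of -0.28. Of all tested genes, 13.3% were called lower and 11.4% higher. Ltf, lactoferrin, had 9.3, 7.87 and 14.6 CPM in control and 2.04, 1.83 and 2.81 CPM in DMSO libraries (-2.24), and Igfbp4 changed by -1.06. The higher ones were Stc2 (0.99) and Wnt4 (0.62). The receptor gene Esr1 itself had 1.89, 2.09 and 2.06 CPM and 1.41, 0.973 and 0.96 CPM (adjusted p = 0.218). Of 22 target genes of the xenobiotic factors NRF2 and AHR, 8 were lower (36.4%) and 0 higher, with a median of -0.54. Among the lower were Aldh3a1 (-1.83), Gstm1 (-1.57) and Cyp1b1 (-1.36). The standard NRF2 target Nqo1 had 99.5, 109 and 105 CPM and 128, 129 and 114 CPM and was not called (adjusted p = 0.0587).

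The remaining lists are read against 11.4% of all tested genes called higher and 13.3% lower. Mitosis genes gave 1 call of 25 (Plk1, -0.51). That count was 6 without control replicate 1 and 0 without control replicate 3, DMSO replicate 1 or DMSO replicate 3. DNA replication genes gave 2 higher and 2 lower of 31. The 2 higher were 1 without control replicate 3 or any 1 DMSO library, and the 2 lower were 1 without control replicate 3 or DMSO replicate 3. Both lists were higher in WM-3835 than in knockout libraries (14 called of 25 and 14 of 31), for example Mki67 at 64.5, 90.01 and 90.05 CPM in knockout and 125, 138 and 128 CPM in WM-3835 libraries, against 70.2, 98.7 and 130.4 in control and 88.5, 99.9 and 92.5 in DMSO. Cholesterol synthesis genes gave 3 higher and 6 lower of 25 (24% lower, median -0.09), and the 6 were 1 without DMSO replicate 1, 2 without control replicate 3 and 3 without DMSO replicate 2 or 3. Insig1 (-0.45) was lower and Sqle (0.39) higher. Subunits of the KAT7 complex and other acetyltransferases of its family gave 3 higher, among them Brpf3 (0.50) and Ing5 (0.39), and 1 lower (Jade1, -0.32) of 14 (21.4% higher). AIRE partners and elongation factors gave 3 higher and 1 lower of 27, among them Sirt1 (0.34), Parp1 (0.40) and Atf7ip (-0.36). Genes of p53 and apoptosis went both ways, 8 higher (38.1%) and 6 lower (28.6%) of 21, both above the shares of all genes, and the 6 were 3 without DMSO replicate 1. Trp53 (0.48) and Bbc3 (0.66) were higher and Cdkn1a (-0.83) was lower.

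**Figure D5:**
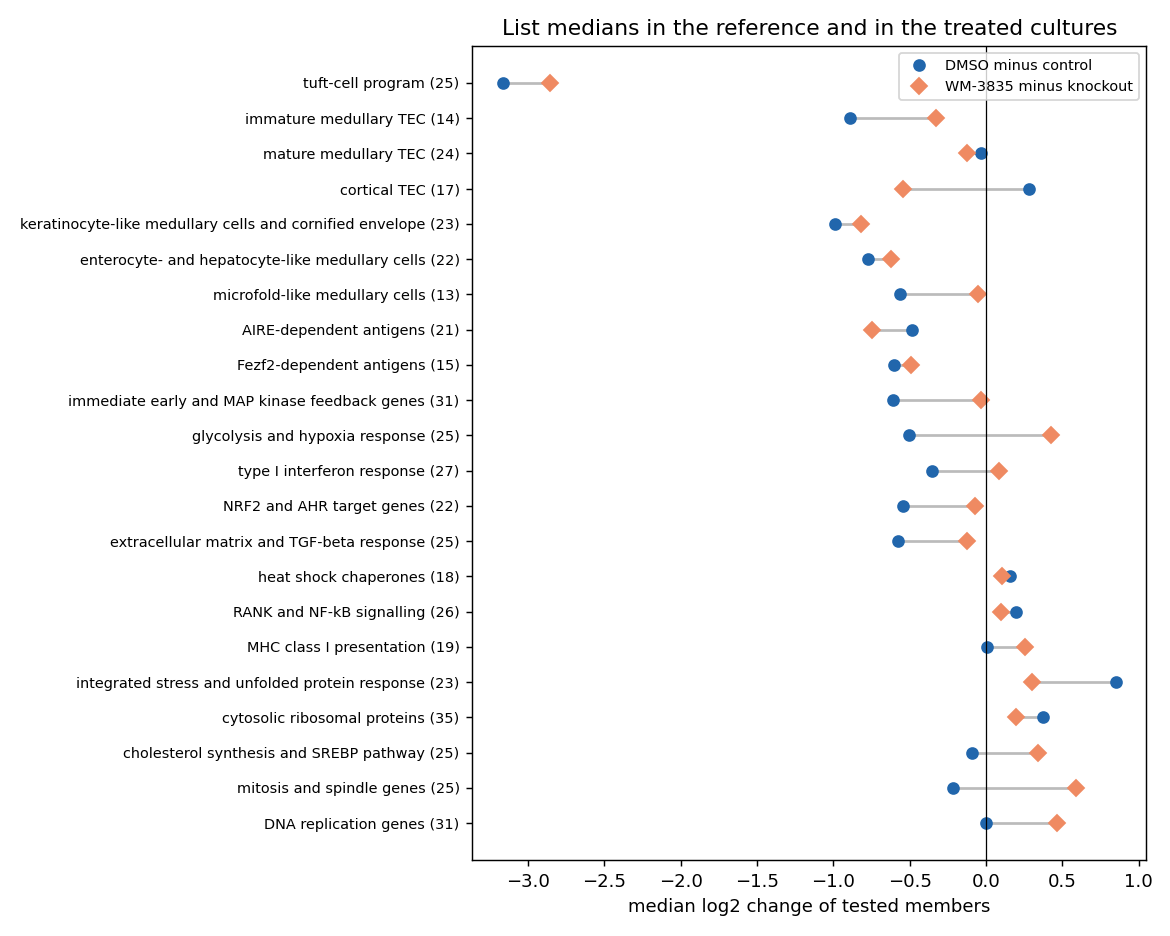
Median log2 change of 22 gene lists in the reference cultures (DMSO minus control, circles) and in the treated cultures (WM-3835 minus knockout, diamonds), which share no library. The tuft-cell medians are -3.16 and -2.86, and the cortical TEC and hypoxia medians have opposite signs.

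Over the called genes, the treated cultures mostly had the same direction. Of 4600 called genes, 3516 (76.4%) had the same sign in WM-3835 minus knockout, as did 64.5% of all tested genes. Of the 2479 called lower, 1094 were also called lower there, and of the 2121 called higher, 646 were also called higher. On the lower side the share with the same sign rose with size, from 75.0% of all genes called lower to 86.0% past 2-fold. Of the 177 genes more than 8-fold lower, 170 were lower in WM-3835 than in knockout libraries, and 137 were called so. Their medians were -3.62 in the references and -3.45 in the treated cultures. On the higher side the share was 78.1% of all genes called higher and 79.9% past 2-fold. Knockout and inhibitor also differ in that comparison, so it describes the other cultures and does not isolate a cause.

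Markers of other cell types were called lower in 10% to 42.9% of the tested members of a list, where 13.3% of all tested genes were. The thymocyte (10%), B cell (12.5%), red cell (14.3%) and innate lymphoid (16.7%) lists were near that share. In the lowest quartile of mean level, though, 5.06% of genes were called lower. The medians of these lists were -0.74, -0.94, 0.02 and -0.80. B cell sums were 17.7 to 24.1 CPM in control and 14.4 to 15.9 CPM in DMSO libraries. Innate lymphoid sums were 51.0 to 71.8 and 36.4 to 38.5 CPM, and red cell sums overlapped. Thymocyte markers had 10 of 18 genes testable, 1 called lower, and summed to 47.2 to 51.2 CPM in control and 26.4 to 33.3 CPM in DMSO libraries. That gene was Ptprc (CD45), from 13.1, 4.46 and 8.46 CPM to 0.674, 2.13 and 1.01 CPM (-2.81). Macrophage and dendritic markers gave 5 lower of 18, with Ptprc, which is in both lists, again among them. Sums of these markers were 239 to 319 CPM in control and 185 to 197 CPM in DMSO libraries. Adgre1 (F4/80), which defines them, had 1.8, 2.49 and 2.95 and 1.18, 3.14 and 1.52 CPM, while Mpeg1 had 63.3, 70.2 and 66.7 and 29.2, 29.8 and 28.7 CPM (-1.19). Endothelial markers gave 3 lower of 12, of which Tek had 18.6, 6.35 and 17.3 and 1.54, 2.02 and 1.57 CPM (-3.05), and the defining marker Pecam1 stood at 1.16, 1.59 and 2.25 and 0.501, 0.598 and 0.538 CPM. B cells and red cells gave 1 lower each (of 8 and 7), innate lymphoid cells 2 lower of 12, parathyroid 3 lower of 7 and neural crest 2 lower and 1 higher of 10. Among the 12 epithelial markers, Krt19 was the one with a large change, from 113, 62.1 and 70.6 CPM to 13.04, 10.2 and 11.96 CPM (-2.80), and Krt8 (0.07) and Krt18 (0.07) were not called. The part of these cells in the results was not tested.

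Xist led the 15 largest rises, chosen by the same rule as the falls, and the others were mostly genes of low level. Slc4a10, a bicarbonate transporter, had 2.93, 1.49 and 1.03 CPM in control and 13.4, 13.7 and 15.03 CPM in DMSO libraries (2.94 ± 0.34 SE, adjusted p = 4.41e-06). Slc1a2, the glutamate transporter GLT-1, had 1.68, 4.16 and 5.54 CPM and 18.4, 21.9 and 23.6 CPM (2.49), and stood at 1.82, 2.98 and 1.29 CPM in knockout and 1.57, 2.09 and 2.64 CPM in WM-3835 libraries, so the DMSO cultures were alone in being high. Spata25 (6.15, 4.11 and 2.59 CPM and 30.02, 29.8 and 30.8 CPM) and Zswim1 (29.8, 40.6 and 28.1 CPM and 135, 139 and 125 CPM) were high in WM-3835 libraries as well, at 24.4, 31.9 and 19.01 and 97.4, 134 and 99.2 CPM. The remaining rises were Gpr85 (2.85), Tcerg1l (2.63), Ndnf (2.52), Lrrc24 (2.34), Gdap1 (2.31), Angptl7 (2.14), the opioid receptor gene Oprd1 (2.06), Catsperg1 (2.06), the deacetylase gene Hdac9 (2.01) and the histamine receptor gene Hrh3 (2.00).

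The number of genes detected was compared with 3 libraries against 3, where the exact test cannot reach 0.05. With each library thinned to 26473241 counts, 20173 ± 472 genes (SD, n = 3) had at least 1 count in DMSO and 18809 ± 889 (SD, n = 3) in control libraries (two-sided exact permutation p = 0.2, where the smallest possible is 0.1). With at least 10 counts the numbers were 17023 ± 157 and 17353 ± 275 (SD, n = 3, exact permutation p = 0.2). Control replicates differed more in which low genes they held: 1866 genes had 0 counts in one control library and at least 20 in another, against 79 among DMSO libraries. By the same count, knockout libraries had 789 such genes and WM-3835 libraries 112.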

How the data were processed

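RNA of sorted TECs was sequenced as 75-base pairs from TruSeq RNA v2 libraries, per the labels' protocols. The deposited values are raw counts per Entrez gene, which the authors made with featureCounts on the mm10 build according to the submitters' processing notes. Neither the aligner nor the annotation nor the strand setting was given in the sources used here. Of 27179 genes, 1312 without a symbol (0.657% to 0.743% of a library's counts) were left out.

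Counts were scaled by TMM and filtered with filterByExpr, and a quasi-likelihood model of 4 group means was fitted to 12 libraries with edgeR 4.0.16 in R 4.3.3. The test gave DMSO minus control and WM-3835 minus knockout, with a two-sided Benjamini-Hochberg adjusted p under 0.05 as the call. It was also run on simulated counts that had the same spread in every group. That run did not cover the unequal spread of the groups here. All p-values measure the spread between these samples, 3 per group, called biological replicates in the series design. In the edgeR fit that spread was shared over the 12 libraries, though it ran from 0.101 among DMSO to 0.465 among control libraries. Fitted alone, the 6 compared libraries gave 1415 genes called higher and 2249 lower. Depth limits genes near 0 CPM.

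Members and gene lists were chosen with earlier results of these data known. The genes named are Kat7, Aire, X- and Y-linked genes, the 15 largest rises and falls, and from each list its first member and up to 8 called members of smallest adjusted p; others that a list's description names were chosen after their values were seen. Some genes within the rule are not reported here. RefSeq positions on GRCm38.p6 were matched by Entrez ID for 97.6% of genes. For genes detected, libraries were thinned 5 times to the smallest total, and the group means were set against each other by an exact two-sided permutation test. Replicate numbers did not pair the samples. Other settings were RLE and upper-quartile scaling, 2 other filters, DESeq2 1.42.0, limma-voom (3.58.1) with and without quality weights, a replicate block, the 6 libraries alone, and each library left out.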

Additional observations from a re-analysis of the deposited data

How the results depend on the processing

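Across 15 other settings, the number of genes called higher in DMSO cultures ran from 1415 (control and DMSO libraries fitted alone) to 2474 (limma-voom), against 2121, and the number called lower from 1794 (without DMSO replicate 3) to 2905 (DESeq2), against 2479. With 1 library left out, 1463 to 2422 genes were called higher and 1794 to 2400 lower. Aire kept its direction and call in these 15 settings (0.89 to 0.98), and Kat7 was called in none of them. The tuft-cell list had 23 members called lower in each of the 15, the immediate early list 18, the stress response list 18 or 19 called higher, the ribosomal list 24 to 29, and the hypoxia list 16 to 21 called lower. Of 249 named genes that were called, 208 kept the call in every setting they could be tested in, 41 lost it in at least 1, and 0 reversed.

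With the replicate number as a block, 2142 genes were called higher and 2417 lower. Deviations of control and DMSO libraries of the same number correlated at 0.036, 0.030 and -0.019, so the samples share only a number.

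Counts of 6 or fewer calls per list moved most with single libraries. Without control replicate 2 the AIRE partner list had 7 higher; without control replicate 2 or DMSO replicate 3 the NF-kB list had 2 lower; without DMSO replicate 3 the cholesterol list had 1 higher. The macrophage list had 3 lower without control replicate 2, DMSO replicate 1 or DMSO replicate 3, the endothelial list 1 without DMSO replicate 2 or 3, the parathyroid list 1 without control replicate 3 or any DMSO library, and the red cell list 0 without any 1 of the 6 libraries. The B cell list had 0 without DMSO replicate 1 or 3, the innate lymphoid list 1 without control replicate 3, DMSO replicate 1 or 3, the thymocyte list 2 without control replicate 2, and the muscle list 2 without control replicate 2. The 1 cortical gene called lower became 2 without control replicate 1 or DMSO replicate 2, the 1 MHC class I gene 0 without control replicate 2, the 1 fibroblast gene called higher 0 without DMSO replicate 2 or 3, and the 2 epithelial genes called higher 1 without control replicate 1. List medians moved too: with 1 library left out, that of the microfold list ran from -0.60 to -0.36, the estrogen list from -0.45 to -0.22, the cholesterol list from -0.13 to -0.05, the mature medullary list from -0.09 to 0.02 and the MHC class I list from -0.04 to 0.06. The same sign in WM-3835 minus knockout was held by 3420 called genes (74.3%) without knockout replicate 3. Without thinning, the detected genes at 1 count differed by 1534 (exact permutation p = 0.2) and at 10 counts by -147 (exact permutation p = 0.8).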
